A study of Mus musculus with 6 samples.

Results

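The Hedgehog pathway core genes are 9 genes that receive and relay the Hedgehog signal, namely Smo, Ptch1, Gli1, Gli2, Gli3, Sufu, Gas1, Boc and Cdon. They were taken by name, as every probe set on the array whose annotation gives one of these symbols alone, which came to 23 probe sets of 9 genes, of 18193 genes with a symbol in all. Messenger RNA was measured on 6 arrays of neural stem cells from C57BL/6JRj mice, an inbred laboratory line. The OldNSC group held 3 samples from mice of 9 months and the YoungNSC group 3 samples from mice of 6 weeks. The labels give no genotype or treatment that sets the groups apart and do not say how the cells were isolated, cultured or pooled. Nor is it stated that replicates are separate animals or cultures, so each p-value reflects the scatter among these samples alone, and that scatter may be technical.

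Hedgehog proteins are secreted signals. Without them the receptor Ptch1 holds the membrane protein Smo inactive, and the co-receptors Gas1, Boc and Cdon help Ptch1 to bind the ligand. Binding releases Smo, which acts in the primary cilium to free the Gli transcription factors from their partner Sufu. Gli1 and Gli2 act mainly as activators and Gli3 mainly as a repressor, and Gli1 and Ptch1 are themselves classic targets of the pathway. In the adult mouse brain, Hedgehog signalling is known for maintaining neural stem cells of the subventricular zone and the hippocampus.

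The 6 arrays held 45101 probe sets each, and 38.3 to 40.4% of them lay at a shared lowest value of log2 2.14. Levels are log2 values, so a difference of 1 is a doubling. Probe sets above log2 4 on at least 3 arrays were tested, 19858 in all, and a probe set is said to have risen or fallen where the adjusted p of limma was under 0.05. Across these probe sets Pearson's r was 0.995 between old arrays, 0.979 to 0.993 between young arrays and 0.915 to 0.944 across the ages, taken over probe sets that do not count as replicates. Hybridisation controls, which read RNA added in fixed amounts, averaged 12.28 ± 0.098 on old and 13.24 ± 0.28 on young arrays (log2, SD, n = 3 each), and all 18 were lower on every old array. This difference runs along with each comparison given here, and its part in them was not tested.

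The labelled cell type was checked against marker genes. Of 11 neural stem cell markers on the array 10 were measured, among them Nes, Sox2, Slc1a3 and Fabp7. In old cells 1 rose, Msi1, and 4 fell, Nes, Sox9, Egfr and Hes5. Hes5 had mean log2 levels of 2.43 in old and 7.78 in young cells, at least 13.7-fold lower in old cells against log2 4. Prom1 was under the filter, with means of 2.14 in old and 3.03 in young cells. The microglial markers Cx3cr1, Aif1, Csf1r, Itgam and Ptprc lay at the lowest value on all 6 arrays. So did the endothelial markers Cldn5, Pecam1 and Cdh5 and the mural and fibroblast markers Pdgfrb, Des, Dcn and Lum. From the same lists P2ry12, Kdr, Rgs5 and Col1a1 were under the filter, at or under 2.65 on every array. All 6 astrocyte markers were measured, with 4 higher and 1 lower in old cells, and their summed level was 15.05 to 15.17 on old and 14.71 to 14.74 on young arrays (log2). Of 6 neuron markers 2, Tubb3 and Snap25, were measured and both fell, with a summed level of 5.32 to 5.60 on old and 9.48 to 9.77 on young arrays. Tubb3 gives most of the young sum, with 4.06, 3.46 and 3.98 in old and 9.62, 9.30 and 9.58 in young replicates 1 to 3. Of its old values that of replicate 1 alone was above log2 4, so Tubb3 met the filter by its young arrays. Of 5 endothelial markers Flt1 alone was measured, and it fell. The summed level of these 5 was 5.41 to 5.96 on old and 6.53 to 6.75 on young arrays. Of 6 oligodendrocyte lineage markers 3 were measured. Pdgfra (log2 difference -1.44, adjusted p = 0.00854) and Cspg4 (-1.99, adjusted p = 0.000184) fell, and the brighter Olig1 had 0.04 (adjusted p = 0.570). The summed level of the 6, to which Olig1 gives most, was 13.20 to 13.27 on old and 13.18 to 13.31 on young arrays. Among the markers that fell, Hes5 and Snap25 passed the filter through the young arrays alone. In bulk RNA of this kind, fewer cells of a type and less RNA per cell cannot be told apart, and the part of these shifts in the results below was not tested.

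In old cells the signal transducer Smo, the transcription factor Gli3, its partner Sufu and the co-receptors Boc and Gas1 were higher than in young cells. Smo was 2.08-fold higher, Boc, Sufu and Gli3 1.32-fold to 1.33-fold, and Gas1 1.11-fold to 1.12-fold (n = 3 each, standard errors below). Of the 7 probe sets called, 2 kept their call in each of the 13 alternatives, 1 of Smo and 1 of Gli3. The Gas1 calls were lost whichever single array was left out, and that of Boc with any but young replicate 3. The receptor Ptch1 was at a high level at both ages, with a log2 difference between -0.15 and 0.12 (95% confidence interval). The co-receptor Cdon had a lower mean in old cells, which did not pass the test. Gli1 and Gli2 were under the filter on all 6 arrays, so no change can be given for them.

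Of the 23 probe sets 11 passed the filter, and these 11 cover 7 of the 9 genes. Each of the 11 lay above log2 4 on all 6 arrays, with a lowest value of 4.82, so none passed through one age alone. Of the 11 probe sets 7 rose in old cells, 0 fell and 4 were not called. Over all 19858 tested probe sets 36.6% were called, 20.1% as higher and 16.5% as lower. Counted by gene, with the brightest tested probe set standing for a gene, 5 of 7 rose and 0 fell, beside 22.0% rising and 18.5% falling among all 10050 genes. The old and the young arrays did not overlap at 9 of the 11, each time with the old arrays above, beside 55.3% without overlap in either direction over all probe sets. The median log2 difference of the 11 was 0.40, beside 0.01 for all. Leaving out 1 array lowered the count of 7 risen probe sets in each case. It was 2 without old replicate 1, where Cdon was called as lower, 3 without old replicate 2 or 3, 4 without young replicate 2 or 3, and 5 without young replicate 1. The share of all probe sets called then ranged from 25.2 to 34.4%.

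**Figure D1:**
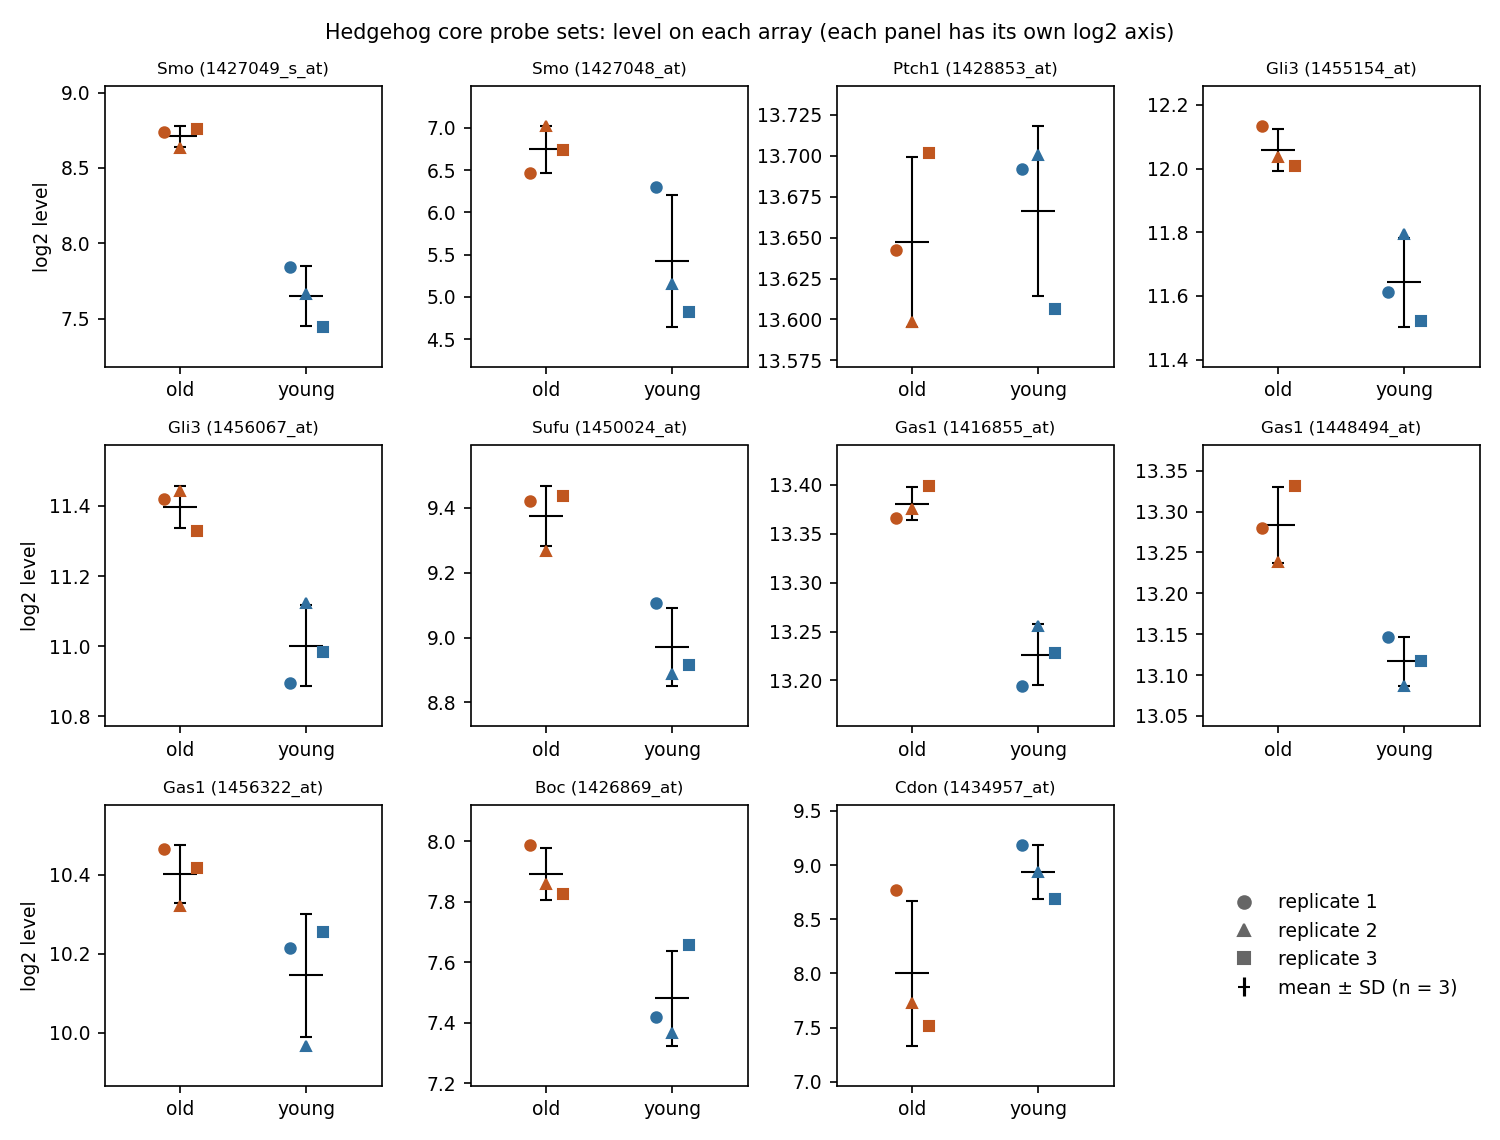
Level of each tested Hedgehog core probe set on each array, in log2 units with a separate vertical axis for each panel, old samples on the left and young on the right. Symbols mark replicates and bars the mean ± SD of 3 samples. Old and young samples are apart at 9 of the 11 probe sets and overlap at Ptch1 and Cdon.

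Smo, Gli3, Sufu and Gas1 rose and have a promoter window in RefSeq that starts at the outermost annotated end of the gene, so their windows are shown here together. Each runs from 250 bases before to 50 bases after the start, on build GRCm38.p6, 5′ to 3′ on the gene's own strand. The windows lie at chr6:29735247-29735546 on the plus strand for Smo, chr13:15463473-15463772 on the plus strand for Gli3, chr19:46396646-46396945 on the plus strand for Sufu and chr13:60177486-60177785 on the minus strand for Gas1. Capitals mark the GC box, searched as GGGCGG on both strands, so that a box on the opposite strand reads as its reverse complement.
Smo: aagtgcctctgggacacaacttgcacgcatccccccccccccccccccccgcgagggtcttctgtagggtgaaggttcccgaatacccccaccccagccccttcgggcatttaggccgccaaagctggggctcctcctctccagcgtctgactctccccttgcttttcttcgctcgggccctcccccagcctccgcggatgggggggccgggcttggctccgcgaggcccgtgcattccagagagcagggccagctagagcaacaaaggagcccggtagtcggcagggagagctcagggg
Gli3: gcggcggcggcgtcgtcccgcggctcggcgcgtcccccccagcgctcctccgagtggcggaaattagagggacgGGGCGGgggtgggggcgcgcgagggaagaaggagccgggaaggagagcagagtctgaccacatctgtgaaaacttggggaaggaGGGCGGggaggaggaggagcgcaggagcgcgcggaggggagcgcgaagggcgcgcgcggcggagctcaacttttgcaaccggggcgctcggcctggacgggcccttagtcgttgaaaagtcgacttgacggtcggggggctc
Sufu: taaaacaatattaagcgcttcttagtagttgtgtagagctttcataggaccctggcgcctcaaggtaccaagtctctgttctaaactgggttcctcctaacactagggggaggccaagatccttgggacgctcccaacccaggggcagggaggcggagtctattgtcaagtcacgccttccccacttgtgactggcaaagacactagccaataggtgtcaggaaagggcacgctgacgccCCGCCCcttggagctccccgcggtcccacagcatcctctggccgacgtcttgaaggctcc
Gas1: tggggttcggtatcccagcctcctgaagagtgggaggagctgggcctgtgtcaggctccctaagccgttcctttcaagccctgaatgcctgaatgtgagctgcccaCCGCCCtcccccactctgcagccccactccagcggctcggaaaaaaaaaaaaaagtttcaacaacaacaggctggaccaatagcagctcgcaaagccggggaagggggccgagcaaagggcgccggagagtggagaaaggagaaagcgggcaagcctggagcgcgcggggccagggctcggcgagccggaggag
The Gli3 window holds 2 GC boxes, at positions 75 and 159 from its 5′ end, the Sufu window 1 at position 241 and the Gas1 window 1 at position 107, both on the opposite strand, and the Smo window none. The windows of Ptch1, which was not called, and of Gli2, which was not tested, held 1 each, and that of Cdon 0. A GC box was found in 5 of the 7 members' windows and in 35.7% of all 32851 windows of this length. The Gli consensus GACCACCCA was in none of the 7 windows that RefSeq gave for the members, and in 0.253% of all windows. Its inner core ACCACCC was in 1 of the 7, that of Gli2, and in 4.61% of all windows. The GC share was 67.7% for Smo, 71% for Gli3, 56.3% for Sufu and 62.3% for Gas1, beside a median of 52.7% over all windows. The Ptch1, Gli2 and Cdon windows lie inside the annotated span of their genes, at other starts. Matches describe these letters in these windows alone.

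Smo, the seven-pass membrane protein through which the signal enters the cell, had the largest called difference among the members. At its brightest probe set, 1427049_s_at, the level was 8.74, 8.63 and 8.76 in old replicates 1 to 3 and 7.84, 7.66 and 7.45 in young replicates 1 to 3. The lowest old sample stood above the highest young one, with means of 8.71 ± 0.068 in old and 7.65 ± 0.20 in young cells (SD, n = 3 each). The log2 difference was 1.06 with a standard error of 0.11, a 2.08-fold rise (adjusted p = 0.00177), and 88.5% of all tested probe sets differed by less. The call held in each of the 13 alternatives, with an adjusted p of 0.000577 to 0.0140. The suffix of this probe set is the array maker's mark for probes that match several transcripts.

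The second tested probe set of Smo, 1427048_at, was annotated with the same source sequence. It read 6.47, 7.02 and 6.74 in old and 6.30, 5.15 and 4.82 in young replicates 1 to 3. The young samples were spread widely, and young replicate 1 lay just below the lowest old sample. The log2 difference of 1.32 had a 95% confidence interval of 0.29 to 2.35 and missed the threshold (adjusted p = 0.0546). Without young replicate 1 it was 1.76 and passed (adjusted p = 0.00639). With all 6 arrays it also passed on median centring (adjusted p = 0.0480), with eBayes trend and robust options (adjusted p = 0.0177) and with array weights (adjusted p = 0.0376). At both probe sets young replicate 1 was the highest and young replicate 3 the lowest of the young samples. The remaining probe set of Smo read 2.14 on every array.

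Gli3, whose protein is cut into a repressor when no Hedgehog signal is received, was read by 2 bright probe sets with differences of similar size. At 1455154_at it had 12.13, 12.04 and 12.01 in old and 11.61, 11.79 and 11.52 in young replicates 1 to 3. At 1456067_at it had 11.42, 11.44 and 11.33 in old and 10.90, 11.12 and 10.98 in young replicates 1 to 3. Old samples lay above young samples at both, and young replicate 2 was the highest young sample at both. The log2 differences were 0.42 and 0.40, with standard errors of 0.086 and 0.076, or 1.33-fold and 1.32-fold (adjusted p = 0.0154 and 0.0123). The call at 1456067_at held in all 13 alternatives. That at 1455154_at was lost without old replicate 1 (adjusted p = 0.0538) and without old replicate 2 (adjusted p = 0.0505), and with no filter on low values (adjusted p = 0.0568).

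Sufu, which binds Gli proteins in the cytoplasm and restrains them, had 9.42, 9.27 and 9.44 in old and 9.11, 8.89 and 8.91 in young replicates 1 to 3. The groups did not overlap, and the gap between them was narrow, from 9.11 to 9.27. The log2 difference was 0.40 with a standard error of 0.085, or 1.32-fold (adjusted p = 0.0163). The call was lost without old replicate 1 (adjusted p = 0.0576), old replicate 3 (adjusted p = 0.0598) or young replicate 3 (adjusted p = 0.0561), and with no filter on low values (adjusted p = 0.0587). The direction held in each of these, with differences of 0.36 to 0.47 over the 6 fits that leave out 1 array.

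Boc, a co-receptor of the immunoglobulin superfamily, had 7.99, 7.86 and 7.83 in old and 7.42, 7.37 and 7.66 in young replicates 1 to 3. Young replicate 3 lay between the other young samples and the old ones. The log2 difference was 0.41 with a standard error of 0.096, or 1.33-fold (adjusted p = 0.0234). The call was kept without young replicate 3, where the difference was 0.50 (adjusted p = 0.0133), and lost without any other single array, with adjusted p values of 0.0533 to 0.0732. It was also lost with no filter on low values (adjusted p = 0.0827) and with eBayes trend and robust options (adjusted p = 0.0681). With the replicate number as a block the Boc call was lost too (adjusted p = 0.0682). Cdon, the close relative of Boc and also a co-receptor, was not called. It had 8.77, 7.73 and 7.51 in old and 9.18, 8.94 and 8.68 in young replicates 1 to 3. Old replicate 1 lay within the young range, while the other old samples were below every young one. The log2 difference was -0.93 with a 95% confidence interval of -1.82 to -0.04 and was not called (adjusted p = 0.0937). Without old replicate 1 it was -1.31 and was called (adjusted p = 0.0104), while without any other single array it was -0.69 to -1.06 and was not. Whether Boc and Cdon differ from each other in their change was not tested.

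Gas1, a co-receptor anchored to the membrane by a lipid, was read by 3 tested probe sets, and every old sample was above every young sample at each. At 1416855_at it had 13.37, 13.38 and 13.40 in old and 13.19, 13.26 and 13.23 in young replicates 1 to 3. At 1448494_at it had 13.28, 13.24 and 13.33 in old and 13.15, 13.09 and 13.12 in young replicates 1 to 3. The differences were small next to those of Smo, with log2 values of 0.15 and 0.17 and standard errors of 0.043 and 0.048. They amount to 1.11-fold and 1.12-fold (adjusted p = 0.0415 and 0.0454). Neither call held in any of the 6 fits with 1 array fewer, which gave adjusted p values of 0.0531 to 0.123 and 0.0707 to 0.134. The call at 1416855_at was also lost on median centring (adjusted p = 0.0792). With the replicate number as a block both calls were lost (adjusted p = 0.109 and 0.100). The dimmer probe set, 1456322_at, had 10.47, 10.32 and 10.42 in old and 10.21, 9.97 and 10.25 in young replicates 1 to 3. Its log2 difference of 0.25 had a 95% confidence interval of 0.02 to 0.49 and was not called (adjusted p = 0.0861).

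Ptch1, the receptor and a target gene of the pathway, was bright at 1 of its 3 probe sets, 1428853_at. It had 13.64, 13.60 and 13.70 in old and 13.69, 13.70 and 13.61 in young replicates 1 to 3. The ages overlapped almost fully, with means of 13.65 ± 0.052 in old and 13.67 ± 0.052 in young cells (SD, n = 3 each). The log2 difference was -0.02 with a 95% confidence interval of -0.15 to 0.12 (adjusted p = 0.804), and 5.25% of tested probe sets differed by less. Its other probe sets stayed at or under 2.22 on every array.

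Gli1, the activator whose transcription is the common readout of the pathway, has 1 probe set here, and it was at the lowest value of 2.14 on all 6 arrays. Gli2, the main activator at the start of a response, has 2 probe sets. The brighter had 3.00, 3.15 and 3.15 in old and 3.18, 3.15 and 3.15 in young replicates 1 to 3, and the dimmer 2.33 to 2.41 in old and 2.34 to 2.53 in young cells. None of these values reached log2 4, and the old and young ranges overlapped. A value under the filter does not show that the transcript was lacking. Of the 7 members that were measured, 6 also had a probe set under log2 4 on every array, beside one well above it.

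**Figure D2:**
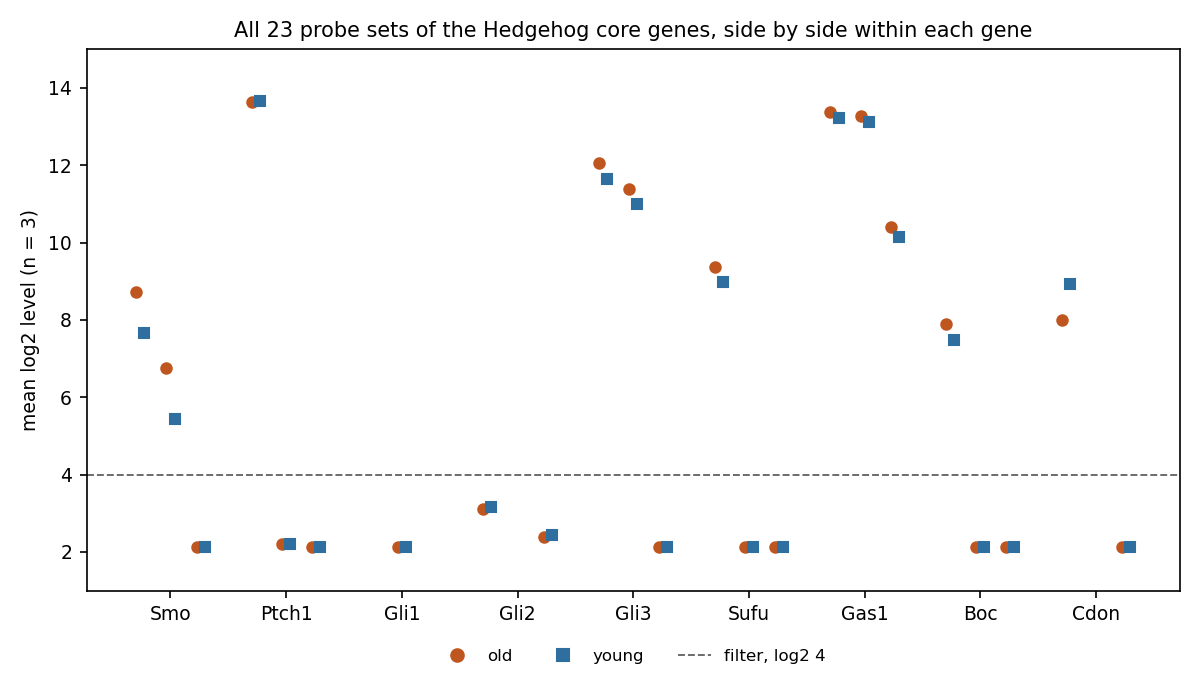
Mean log2 level of each of the 23 probe sets, grouped by gene, with old samples as circles and young as squares (n = 3 each). The dashed line is the filter at log2 4. Smo, Ptch1, Gli3, Sufu, Boc and Cdon each have probe sets both above and below the line, Gas1 has 3 above it, and Gli1 and Gli2 have none above it.

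**Figure D3:**
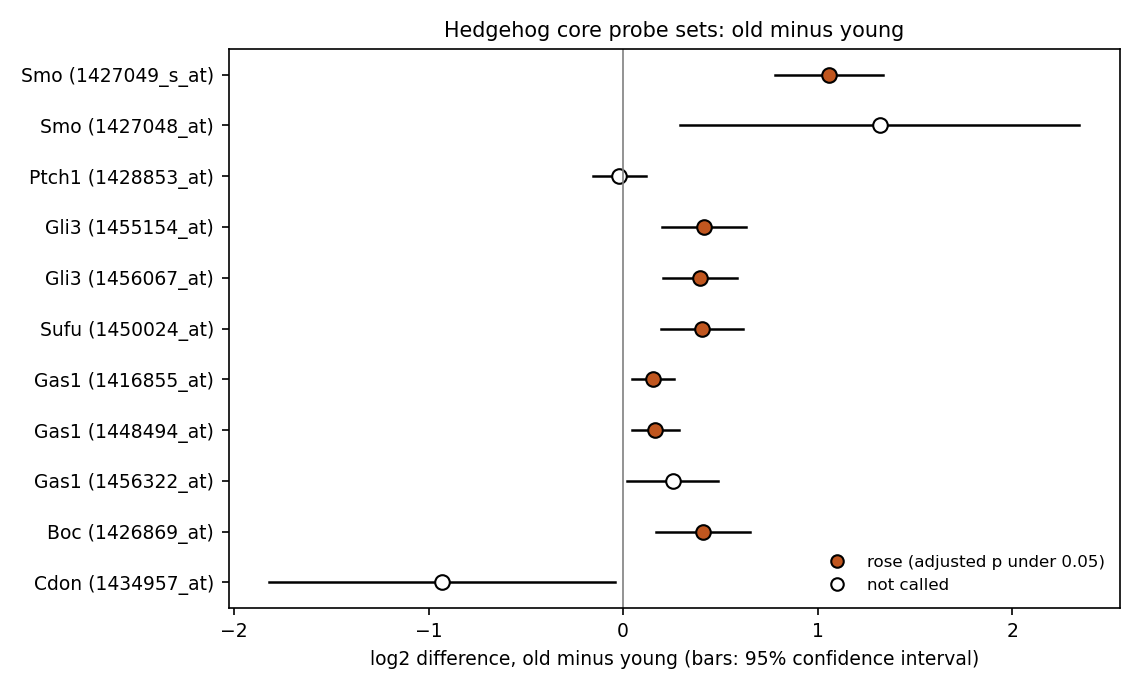
Log2 difference, old minus young, of the 11 tested probe sets with 95% confidence intervals from limma, not adjusted for the number of tests. Filled circles rose at an adjusted p under 0.05. The interval of Ptch1 spans 0, and that of Cdon lies below 0 although its adjusted p was 0.0937.

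**Figure D4:**
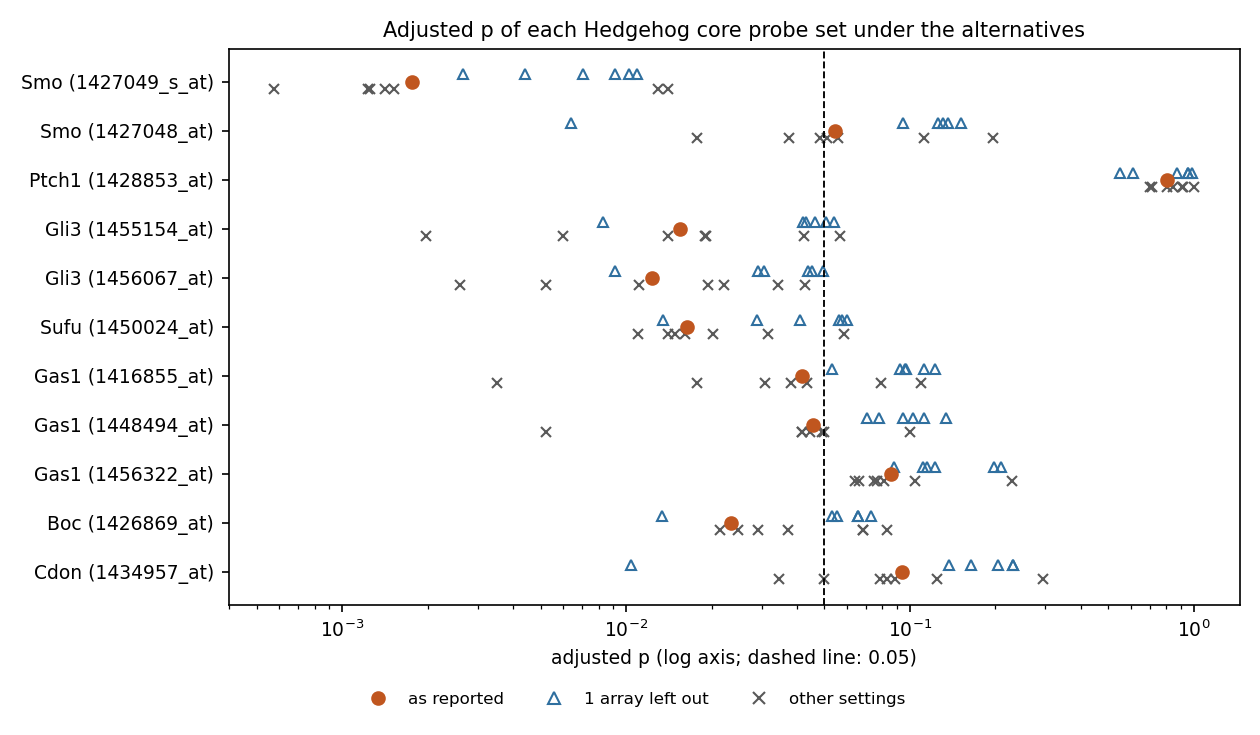
Adjusted p of each tested probe set on a log axis, as reported (circles), with 1 array left out (triangles) and under the other settings (crosses). The dashed line is 0.05. At Smo (1427049_s_at) and Gli3 (1456067_at) every mark lies left of the line, while at the other called probe sets the marks fall on both sides.

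The members were then set beside other genes of the pathway, from lists by role that hold 100 further genes. Of the 94 with a probe set of their own 67 were measured. Among these 67 genes 15 rose and 12 fell in old cells, shares close to the 22.0% and 18.5% of all genes, with a median log2 difference of 0.09, beside 0.01 for all genes. Without old replicate 3 the count of risen genes was 9, and without young replicate 3 that of fallen genes was 7. Of the 27 called genes 14 kept their call in every alternative tried, among them Arrb1, B9d1, Ift172 and Nkx2-2. These 4 passed the filter through the arrays of a single age, so that they had to differ once tested. No p is given for them. Without these 4 genes 13 of 63 rose and 10 fell, with a median log2 difference of 0.09. Of the 63, 7 rose without old replicate 3 and 5 fell without young replicate 3.

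Of the ligands, Ihh stayed at the lowest value on all 6 arrays and Dhh at or under 2.16. Shh had 3.34, 3.17 and 3.18 in old and 4.26, 3.34 and 3.36 in young replicates 1 to 3, and so was under the filter. Disp1 and Disp2, of the family that releases Hedgehog from the producing cell, went in opposite directions. Disp2 rose to 9.30 ± 0.29 in old cells, against 8.21 ± 0.23 in young cells (adjusted p = 0.00865). Disp1 fell to 6.56 ± 0.26 in old cells, against 7.20 ± 0.20 in young cells (SD, n = 3, adjusted p = 0.0335), a call lost without old replicate 1 or 2 or young replicate 1 or 3 (adjusted p up to 0.103). The Disp1 call held in 8 of the 13 alternatives tried (adjusted p up to 0.128). The decoy receptor Hhip, itself a target of the pathway, was under the filter with 2.42, 2.16 and 2.22 in old and 3.26, 3.00 and 2.98 in young replicates 1 to 3. Lrp2 and Gpc3, which bind Hedgehog at the surface, were at the lowest value on all arrays.

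Of 27 measured genes of signal relay and Gli turnover 2 rose and 7 fell, beside 22.0% and 18.5% of all genes, with a median log2 difference of -0.01. Without young replicate 1 or 3, 4 fell, since Kif7, Gpr161 and Spop, an adaptor for Gli degradation named here after its values were seen, were not called. The 2 that rose were Tulp3, which brings receptors into the cilium (0.52, adjusted p = 0.000949), and Iqce, a ciliary partner of the Evc complex (0.41, adjusted p = 0.0168). The Iqce call was lost without old replicate 3 or young replicate 3 (adjusted p up to 0.0565). It held in 9 of the 13 alternatives tried (adjusted p up to 0.0605). The 1 other tested probe set of Iqce was not called. Both β-arrestins were lower in old cells. Arrb1 had 3.37, 3.09 and 3.06 in old and 7.01, 5.31 and 6.52 in young replicates 1 to 3, at least 4.86-fold lower in old cells against a level of log2 4. Arrb2 had a log2 difference of -0.81 (adjusted p = 0.00199). Csnk1d, a casein kinase, had a log2 difference of -0.31 (adjusted p = 0.00872) at its brightest probe set. Its 4 other tested probe sets were not called. Gpr161, a ciliary receptor that restrains the pathway, had one of -0.48 (adjusted p = 0.0272), and the kinesin Kif7, which organises the tip of the cilium, one of -0.34 (adjusted p = 0.0266). The Gpr161 call was lost without old replicate 3 or young replicate 1 or 3 (adjusted p up to 0.0832). That of Kif7 was lost without any single array other than old replicate 3 (adjusted p up to 0.0878). Over the 13 alternatives tried, the Gpr161 call held in 9 (adjusted p up to 0.101) and the Kif7 call in 5 (adjusted p up to 0.196).

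Of 25 measured genes of ciliary transport and the transition zone 11 rose and 2 fell, beside 22.0% and 18.5% of all genes, with a median log2 difference of 0.27. Without B9d1 and Ift172 9 of 23 rose, with a median of 0.19. Of the 11 genes 5 kept their call in every alternative tried, and these 5 include B9d1 and Ift172. Without old replicate 3 the count of risen genes was 6, or 4 when B9d1 and Ift172 are left out. B9d1, a protein of the transition zone, was under log2 4 on every young array. It had 7.67, 8.03 and 8.34 in old and 2.51, 2.51 and 2.14 in young replicates 1 to 3, at least 16.2-fold higher in old cells against that level. Ift172, of the transport machinery, had 4.66, 4.56 and 4.62 in old and 3.10, 2.89 and 3.00 in young replicates 1 to 3, at least 1.53-fold higher by the same measure. Ift80 rose by 0.41 on the log2 scale (adjusted p = 0.00420), while its 1 other tested probe set was not called. Ift27 fell, with a log2 difference of -0.45 (adjusted p = 0.00254). Foxj1, the transcription factor that marks ependymal and other multiciliated cells, had 5.77, 5.36 and 6.30 in old and 3.54, 2.91 and 3.63 in young replicates 1 to 3. It was at least 3.50-fold higher in old cells and passed the filter through the old arrays alone. Its part in the ciliary genes was not tested, and Ttr, a marker of choroid plexus, was at the lowest value on all 6 arrays.

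Of 19 listed target genes with a probe set 8 were measured. Of these 2 fell and 0 rose, beside 18.5% and 22.0% of all genes. Nkx2-2, a ventral and oligodendrocyte lineage factor, was at least 91.2-fold lower in old cells, with 2.26, 2.17 and 2.34 in old and 10.56, 10.46 and 10.51 in young replicates 1 to 3. Without it 1 of 7 fell. Bcl2, a survival factor, had a log2 difference of -0.56 (adjusted p = 0.0148). It missed the threshold without young replicate 3 (adjusted p = 0.0530). It also did so with no filter on low values and with the replicate number as a block (adjusted p up to 0.0628). Ccnd1, the cyclin of entry into the cell cycle, had -0.12 (adjusted p = 0.123), and Foxm1, a driver of mitotic genes, -0.41 (adjusted p = 0.0801). The 2 other tested probe sets of Foxm1 were called as lower. Sfrp1 was not called at its brightest probe set, and its 1 other tested probe set was called as higher. Mycn was under the filter, with 2.72, 2.79 and 2.33 in old and 5.81, 3.68 and 3.86 in young replicates 1 to 3. The young value of 5.81 was the only one above log2 4. Of the same list Foxf1 and Foxc2, forkhead factors named here after their values were seen, were also under the filter, with the old arrays above the young. Foxf1 had 4.33, 3.91 and 4.63 in old and 2.16, 2.20 and 2.33 in young replicates 1 to 3. Foxc2 had 3.89, 4.09 and 4.89 in old and 2.32, 2.15 and 2.14 in young replicates 1 to 3. Of the zinc finger relatives of the Gli genes, 1 of 5 measured rose and 0 fell, beside 22.0% and 18.5% of all genes. Zic5 rose by 0.47 on the log2 scale (adjusted p = 0.0146), a call lost with no filter on low values (adjusted p = 0.0578). Glis3 had 0.48 (adjusted p = 0.0741), Glis2 0.25 (adjusted p = 0.102) and Zic2 0.08 (adjusted p = 0.304). Without young replicate 2 Glis3 was called, at 0.62 (adjusted p = 0.0377).

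**Figure D5:**
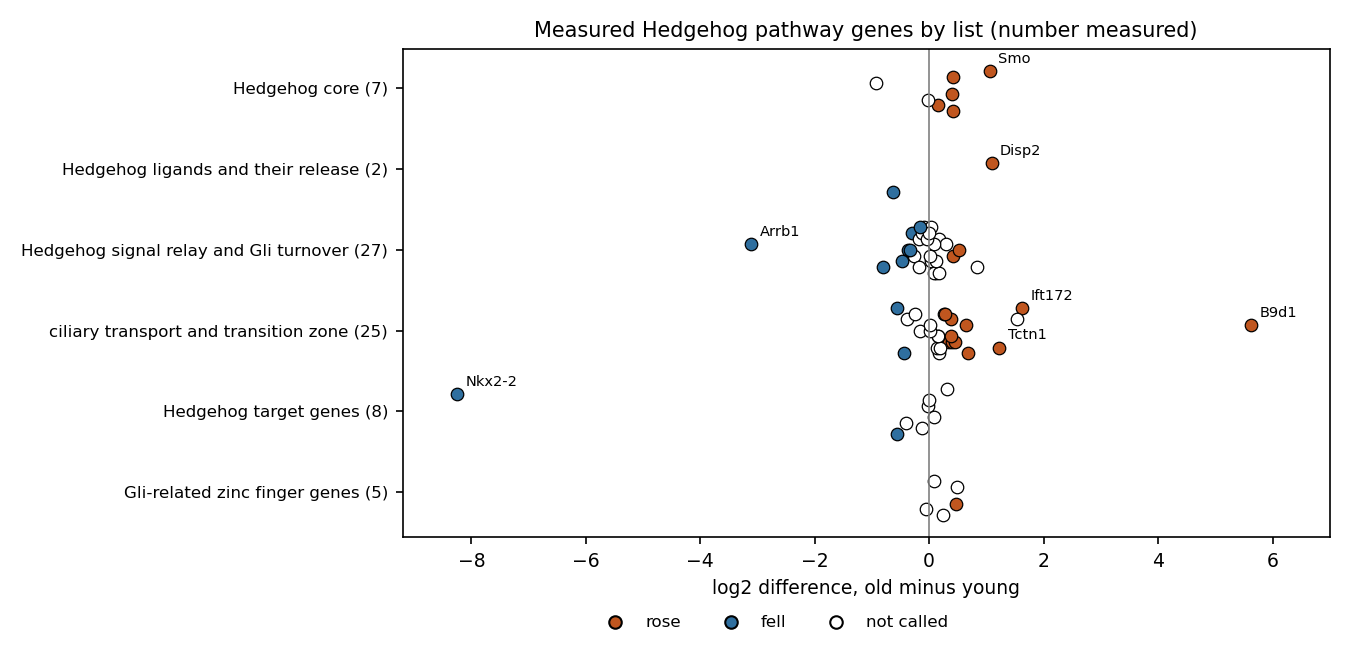
Log2 difference, old minus young, of each measured gene in the Hedgehog lists, with the number measured after each list's name and genes named where a called difference exceeds 1 in size. Filled circles rose or fell at an adjusted p under 0.05, and vertical scatter within a list has no meaning. The core genes that rose lie between 0.15 and 1.06, while Nkx2-2 at -8.25 and B9d1 at 5.63 lie far out.

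The genes whose brightest probe set was most like that of a member were found by Pearson's r over the 6 arrays among 10049 others. For Smo these were Tfrc (r = 1.000), Bcor (r = 0.999) and Septin6 (r = 0.999), and 79 genes had r over 0.99. For Ptch1 they were Styx (r = 0.951), Nol4l (r = 0.945) and Lrp8 (r = 0.930), and 0 genes had r over 0.99. With 6 arrays in 2 groups, r for a gene that differs between the ages also carries that difference.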

How the data were processed

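The authors deposited log2 levels for each probe set, computed by GCRMA, per the submitters' processing notes. This method removes background according to probe sequence, normalizes across arrays and draws dim probe sets to a common value, so spread near the floor is understated. The GCRMA version is not given, and the values themselves show the log2 scale. Per the labels' protocols, a NucleoSpin XS kit was used for extraction and a NuGEN module for biotin labelling.

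The platform annotation named those probe sets for which it gives 1 symbol, 34945 of them, after 64 control probe sets were left out. Entrez identifiers matched RefSeq GRCm38.p6 for 99.4%. Old and young arrays were compared by a two-sided limma fit (lmFit, eBayes; limma 3.58.1, R 4.3.3) over 19858 probe sets above log2 4 on at least 3 arrays, with Benjamini-Hochberg adjustment over all of them. Residual degrees of freedom were 4 and prior ones 1.47. The brightest tested probe set represents a gene. Where all arrays of an age lay under log2 4, the fold is a bound computed against that level. The test was tried on simulated data. Promoter sequences are from RefSeq, and the GC box was added to the search after the data were seen. Figures used matplotlib 3.10.9 in Python 3.11.15.

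The members and lists were chosen with earlier results of these data known. Named were the 9 members, the genes of smallest p in each list (at most 4), and Shh, Hhip, Ccnd1, Mycn, Kif7 and Gpr161, while 1 further gene is not reported here. Iqce, Spop, Sfrp1, Foxf1, Foxc2, Ihh, Dhh, Lrp2, Gpc3 and the marker genes were added to complete a count or a list. The alternatives were 2 other filters, quantile normalization again, median centring, the replicate number as a block, eBayes with trend and robust options, array weights, leaving out each array and, for gene counts, the mean of a gene's probe sets.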

Additional observations from a re-analysis of the deposited data

How the results depend on the processing

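Over the 13 alternatives, differences kept their direction at 10 of the 11 tested core probe sets. The exception was Ptch1, at -0.0485 to 0.0058 with 1 array left out and above 0 without old replicate 2 (adjusted p = 0.957). Against 7 core probe sets called as higher and 0 as lower, there were 4 higher with no filter on low values, where 11.1% of 45037 probe sets were called. With 1 array left out there were 2 to 5 higher and 0 to 1 lower, 3 to 5 in all. Cdon was called as lower with eBayes trend and robust options, which made 1 lower. With the replicate block, 4 core probe sets were called as higher and 1, Cdon (adjusted p = 0.0498), as lower, and 5600 probe sets in all, against 7268. The calls lost with it were those of Boc (adjusted p = 0.0682) and of Gas1 at both called probe sets (adjusted p = 0.109 and 0.100). The deviations of same-numbered samples from their group means correlated at -0.16, -0.11 and 0.16. With 3 samples a group these values cannot show whether same-numbered samples were handled together. Among the wider Hedgehog genes, 9 to 16 were higher and 7 to 12 lower with 1 array left out, against 15 and 12. Arrb1, B9d1, Ift172 and Nkx2-2, which passed the filter through the arrays of a single age, are part of these counts. With no filter 6 ciliary genes rose, against 11, or 4 against 9 without B9d1 and Ift172. Other counts over the core, the wider genes together and all probe sets stayed within 1.5 times, named exceptions apart. Some of these fits held fewer samples or more probe sets, and the causes of the changes were not tested. The 3 samples a group limit the precision, and no detection calls were used here.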
